A study of Mus musculus with 8 samples.

Results

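Heat shock proteins were followed across 3 genotypes of whole mouse embryos at E11.5, counted in embryonic days. A list of 10 genes was set out in 3 classes. The inducible cytosolic class held Hspa1a, Hspa1b, Hspb1, Dnajb1, Hsph1 and Hsp90aa1, the constitutive cytosolic class held Hspa8 and Hsp90ab1, and the mitochondrial class held Hspd1 and Hspe1. A member was taken as measured where the RefSeq accession of a gene probe belonged to it. This gave 8 of the 10 genes, each with 1 probe, among the 13971 genes named on the array (34967 gene probes, 14763 of them with a symbol). No probe was matched to Hspa1b or Hspa8, and neither was analysed here. All 8 measured members were above background on all 8 arrays and none was saturated, so all passed the filter on dim probes.

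The embryos came from matings of mice with an allele that lowers expression of Ott1, the gene now named Rbm15, which encodes an RNA-binding Spen family protein. Embryos 11 and 13 were wild type, embryos 3, 10 and 15 were heterozygous for the low-expression allele, and embryos 2, 7 and 16 were homozygous for it. The labels name no treatment, strain or sex, and the replicates are separate embryos. Because whole embryos were profiled, fewer cells of a type and less RNA per cell cannot be told apart. No probe was matched to Rbm15, so the targeted gene could not be checked.

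Heat shock proteins are chaperones that keep other proteins folded. Under heat or other protein stress, trimers of the transcription factor Hsf1 bind heat shock elements, runs of the unit nGAAn in alternating orientation, and switch on the inducible class. Members of the constitutive class fold proteins in every unstressed cell, and the mitochondrial pair forms the folding chamber of the matrix. Growing embryos express many chaperones without stress, and mouse embryos that lack Hsp90ab1 die in midgestation with a failed placental labyrinth.

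Promoter sequences show what the members share. RefSeq promoters of GRCm38.p6 (250 bases before to 50 after each annotated start) were found for 7 of the 10 genes, in 10 windows. There was no entry for Hspa8, Hsp90aa1 or Hsp90ab1. The stretches below run 5′ to 3′ on the gene's strand. Capitals mark matches to a heat shock element, and ATTGG, the CCAAT box read on the other strand, where a stretch holds it. The marked heat shock matches are single pairs of units, except in Hspe1, which holds a longer run. In Hsph1 a longer match lies outside the printed stretch.
Hspa1a, chr17:34972211-34972286, minus strand: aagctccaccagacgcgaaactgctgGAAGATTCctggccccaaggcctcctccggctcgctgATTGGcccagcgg
Hspa1b, chr17:34959293-34959368, minus strand: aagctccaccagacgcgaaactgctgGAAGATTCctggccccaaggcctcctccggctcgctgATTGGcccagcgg
Hspb1, chr5:135887794-135887839, plus strand: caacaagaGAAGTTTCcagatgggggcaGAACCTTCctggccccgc
Hsph1, chr5:149636351-149636391, minus strand: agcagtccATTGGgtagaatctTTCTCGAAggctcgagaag
Hspe1, chr1:55088043-55088088, plus strand: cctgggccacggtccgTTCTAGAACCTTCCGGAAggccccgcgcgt

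The Hspa1a and Hspa1b stretches are the same, and their whole windows were identical at 296 of 300 bases. These genes are known as near-identical copies. Probe sequences were not used here, so whether the Hspa1a probe also reads Hspa1b was not checked, and its signal is uncertain in that respect. In Hspe1, 4 alternating units follow one another without a gap. The start of Hspe1 lies 216 bases from a start of Hspd1 on the opposite strand. This same element falls into the windows of both starts, so the 2 subunits of the chaperonin share it there. Another annotated Hspd1 start lies 95 bases from that of Hspe1, and its window holds no exact match to a heat shock element of either length.

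Windows were searched on both strands for an element of 3 units, GAA and TTC in turn with any 2 bases (NN) between, starting with either. It was found in 3 of the 7 genes, Hspd1, Hspe1 and Hsph1, and in 4 of the 10 windows, against 0.603% of all 32851 mouse promoter windows of the same length. In Hsph1 the match lay after the annotated start. These counts repeat sites, since Hspd1 and Hspe1 hold the same element and the 2 overlapping Hsph1 windows hold the same match. Hspa1a and Hspa1b are near-identical too, so the windows counted here and below are not independent. A single pair of units, GAANNTTC or TTCNNGAA, which every 3-unit match also contains, was found in 6 of 7 genes and 7 of 10 windows, against 15.1% of all windows. Dnajb1 alone held neither spelling in its 2 windows. Only exact spellings were counted, so an element with a changed base in a unit would be missed in any gene. The letters CCAAT or ATTGG were found in 5 genes and 6 of 10 windows (37.4% of all windows) and TATAAA or TTTATA in 0 of 10 (13.6%). The map of matches by distance from the start shows these positions.

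**Figure D1:**
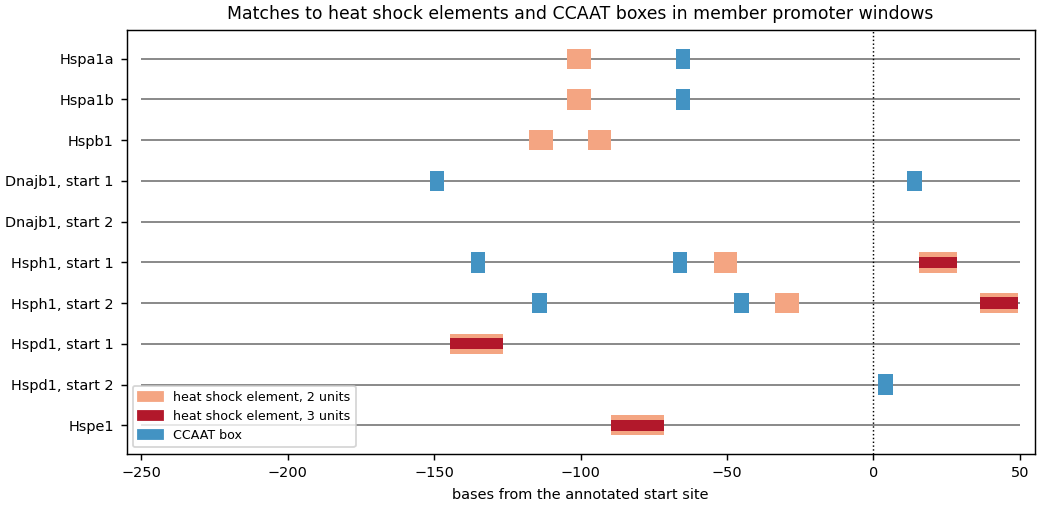
Matches to heat shock elements of 2 units (light), 3 units (dark) and CCAAT boxes (blue) in 10 promoter windows of 7 member genes, by distance in bases from each annotated start (dotted line). Elements of exact spelling lie before the start in Hspa1a, Hspa1b, Hspb1 and Hspe1 and in 1 Hspd1 window. They lie on both sides of the start in Hsph1, and Dnajb1 has none. Elements with a changed base were not searched for.

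Arrays differed in brightness in a way that ran with genotype. Median background-corrected intensity was 48.4 to 57.8 in the 5 wild type and heterozygous embryos, and 60.0, 61.9 and 84.5 in homozygous embryos 2, 7 and 16. Embryo 16 stood apart, with a correlation of 0.933 to 0.938 with the other arrays against 0.959 to 0.976 among the other 7, and it had 1634 spots marked by the scanner software against 206 to 616. Values below are log2 intensities after quantile normalization, which gives every array the same distribution, and values without embryo 16 are given beside member differences from the 5 other embryos. Levels of Y-linked probes were low in embryos 3, 15 and 16. Markers of neurons (6 of 6 genes), liver (5 of 5 with a probe) and erythroid cells (5 of 5 with a probe) were above background on all 8 arrays. In homozygous against other embryos the median difference was -0.44 over neuron, -0.84 over liver, -0.59 over skeletal muscle and -1.72 over macrophage markers. It was -0.39 for visceral endoderm and -0.34 for lens. Others were positive, at 0.35 for cardiomyocyte, 0.28 for endothelium, 0.08 for erythroid cells and 0.05 for trophoblast and decidua. In this comparison 0 markers passed the threshold, and against wild type alone 1 macrophage marker was lower past it. The part of such differences in tissue make-up in the values below was not tested.

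No measured heat shock protein, whether inducible, constitutive or mitochondrial, differed between genotypes past the threshold. In homozygous against the 5 other embryos, 0 of 8 members had a limma adjusted p under 0.05, where 0.107% of the 23388 probes tested did, and 0 of 8 had an unadjusted p under 0.05, against 20.0% of probes. Member differences ran from -0.46 to 0.38 on the log2 scale, 4 of them positive. Their median was -0.01, beside -0.06 over all probes. In no member did the 3 homozygous values lie wholly above or below the others, which 14.6% of probes showed. Against wild type alone, 0 of 8 members passed, beside 0.0342% of 23387 probes, with differences of -0.62 to 0.37 and 0 at an unadjusted p under 0.05 (15.3% of probes). Between homozygous and heterozygous embryos 0 of 8 passed, beside 0.0214%, with differences of -0.34 to 0.38, 0 at an unadjusted p under 0.05 (11.6%) and 0 without overlap (19.2%). These comparisons share arrays and are not independent.

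Hspa1a, the Hsp70 that is strongly made under stress, was the most variable member. Its log2 values were 5.62 and 5.50 in wild type embryos 11 and 13, 6.05, 5.75 and 4.86 in heterozygous embryos 3, 10 and 15, and 5.35, 4.91 and 7.54 in homozygous embryos 2, 7 and 16. Embryo 16 was the highest of all by a wide margin, while embryos 2 and 7 lay below both wild type embryos. The background-corrected intensity was 211 in embryo 16 (a spot mean of 269 over a local background of 58) and 23.8 to 65.6 in the 7 others, so the signal was dim except there. The homozygous minus other difference was 0.38 (SE 0.55, 95% interval -0.87 to 1.62, limma adjusted p = 0.716). Without embryo 16 it was -0.44 (limma adjusted p = 0.492), so its sign is set by 1 embryo. Its SD within genotypes, 0.97, was larger than that of 98.9% of all tested probes, and of 98.5% of probes at a like level.

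Hsph1 is an Hsp110, which recharges Hsp70 by exchanging its nucleotide. It stood at 6.83 and 6.93 in wild type, 6.70, 6.86 and 6.26 in heterozygous embryos 3, 10 and 15, and 6.72, 6.68 and 5.38 in homozygous embryos 2, 7 and 16. Here embryo 16 was the lowest of all, opposite to its place in Hspa1a, and embryo 15 was the next lowest. Before normalization the intensity of embryo 16 was 63.3, close to the 62.6 of embryo 15, on the brightest array. Intensities were low throughout, at 62.6 to 122 over local backgrounds of 53 to 55. The difference from the 5 other embryos was -0.46 (SE 0.31, 95% interval -1.16 to 0.25, limma adjusted p = 0.423), and -0.01 without embryo 16. All 3 homozygous values lay below both wild type values, with a difference of -0.62 (SE 0.40, limma adjusted p = 0.461) that was -0.19 without embryo 16. Its SD within genotypes was 0.52, above that of 92.3% of probes.

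Hspb1, a small heat shock protein that holds unfolding proteins for later refolding, was at 11.07 and 11.03 in wild type and 10.91, 11.25 and 10.98 in heterozygous embryos 3, 10 and 15. Homozygous embryos 2, 7 and 16 were at 11.39, 11.21 and 10.97, and the groups overlapped. The difference from the others was 0.14 (SE 0.12, 95% interval -0.13 to 0.42, limma adjusted p = 0.519), and 0.26 without embryo 16. It turned to -0.17 under median scaling and -0.21 with the deposited values, where the median of all probes moved from -0.06 to -0.22 and -0.25.

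Dnajb1, the J-domain protein that hands clients to Hsp70 and stimulates its ATPase, was at 9.77 and 9.67 in wild type and 9.98, 9.83 and 9.80 in heterozygous embryos 3, 10 and 15. It was at 9.96, 9.67 and 9.37 in homozygous embryos 2, 7 and 16. The lowest value was again that of embryo 16. The difference was -0.14 (SE 0.14, 95% interval -0.46 to 0.18, limma adjusted p = 0.591) and 0.01 without embryo 16.

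Hsp90aa1, the stress-inducible cytosolic Hsp90, was nearly constant after quantile normalization. It lay at 13.00 and 12.95 in wild type, 13.12, 13.03 and 12.96 in heterozygous embryos 3, 10 and 15, and 12.95, 13.00 and 12.87 in homozygous embryos 2, 7 and 16. The 8 values spanned 0.25, and the SD within genotypes, 0.07, was larger than that of only 3.17% of tested probes (13.0% of probes at a like level). The difference was -0.07 (SE 0.08, 95% interval -0.26 to 0.12, limma adjusted p = 0.649), so the interval leaves out a rise above 1.09-fold under quantile normalization. Without embryo 16 the difference was -0.04, and under median scaling it was -0.45 (limma adjusted p = 0.190). Under median scaling the values were not constant, running from 12.29 in embryo 16 to 13.42 in embryo 10.

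**Figure D2:**
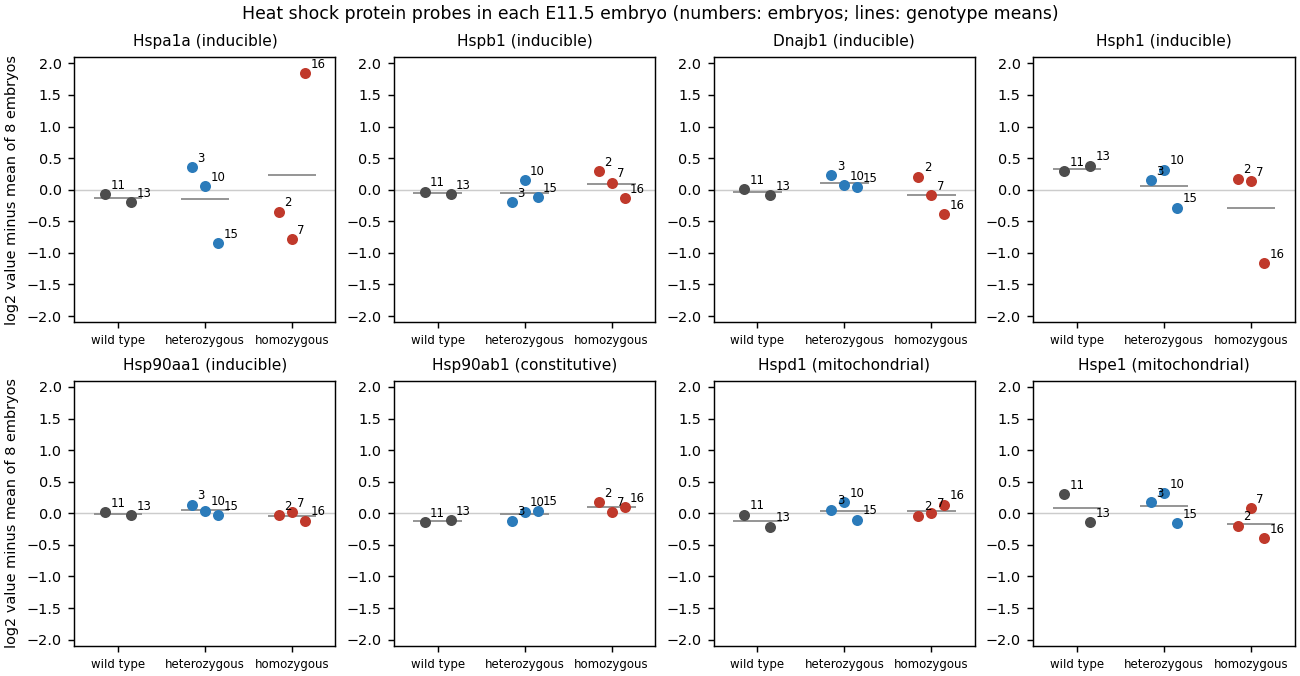
Log2 value of each of the 8 measured members in each embryo, minus that member's mean over the 8 embryos. Numbers are embryos and grey lines are genotype means (2 wild type, 3 heterozygous, 3 homozygous). Embryo 16 is the highest for Hspa1a and the lowest for Hsph1. Both Hsp90 genes vary little after quantile normalization, as shown here, but more under median scaling.

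Hsp90ab1, the Hsp90 present in all unstressed cells, was the only measured member of the constitutive class. Its values were 14.08 and 14.11 in wild type, 14.10, 14.25 and 14.26 in heterozygous embryos 3, 10 and 15, and 14.40, 14.25 and 14.31 in homozygous embryos 2, 7 and 16. Both wild type embryos and heterozygous embryo 3 lay between 14.08 and 14.11, and the 3 homozygous embryos and heterozygous embryos 10 and 15 between 14.25 and 14.40. Homozygous minus other embryos gave 0.16 (SE 0.09, 95% interval -0.04 to 0.36, limma adjusted p = 0.337) and the same without embryo 16, and this sign turned to -0.20 with median scaling and -0.24 with the deposited values. Homozygous and wild type values did not overlap, with a difference of 0.22 (SE 0.11, limma adjusted p = 0.382), which turned to -0.11 under median scaling and -0.14 with the deposited values. Hsp90ab1 and Hsph1 were 2 of 8 members without overlap between these 2 groups, beside 39.5% of probes. Measured against the median of all probes, Hsp90ab1 was 0.22 above it under quantile normalization and 0.02 above it under median scaling. Its values under median scaling ran from 13.77 in embryo 16 to 14.67 in embryo 10.

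The mitochondrial pair folds proteins imported into the matrix. Hspd1 (Hsp60) forms its barrel, and its log2 values were 12.15 and 11.96 in wild type, 12.22, 12.35 and 12.07 in heterozygous embryos 3, 10 and 15, and 12.13, 12.18 and 12.31 in homozygous embryos 2, 7 and 16. The groups overlapped, and the difference of homozygous from other embryos was 0.06 (SE 0.11, 95% interval -0.19 to 0.31, limma adjusted p = 0.780). It was 0.0084 without embryo 16 and turned to -0.32 under median scaling and -0.35 with the deposited values.

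Hspe1 (Hsp10) closes the barrel as its lid. It was at 8.47 and 8.03 in wild type, 8.34, 8.48 and 8.0 in heterozygous embryos 3, 10 and 15, and 7.97, 8.25 and 7.77 in homozygous embryos 2, 7 and 16. Embryo 16 was the lowest and embryo 10 the highest. Homozygous minus other was -0.27 (SE 0.16, 95% interval -0.63 to 0.10, limma adjusted p = 0.370) and -0.16 without embryo 16.

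The levels of Hspd1 and Hspe1, which share the element printed above at the Hspd1 start farther from Hspe1, were set against each other. Over the 8 embryos Pearson's r was 0.25 (exact permutation p = 0.542) and Spearman's rho 0.33 (exact permutation p = 0.428). Without embryos 10 and 13, the farthest from the median of Hspd1, r was -0.24 (exact permutation p = 0.672). Without embryo 16 it was 0.74 (exact permutation p = 0.050). Under median scaling r was 0.88 (exact permutation p = 0.0018) and rho 0.88 (exact permutation p = 0.0072). Without embryos 10 and 16, there the farthest from the median, r was 0.87 (exact permutation p = 0.0361) and rho 0.77 (exact permutation p = 0.103), and without embryo 16 alone r was 0.80 (exact permutation p = 0.0143). The scalings thus differed over 8 embryos and came close without embryo 16. Under median scaling embryo 16 held the lowest value in 7 of 8 members and embryo 10 the highest in 4. Members thus moved together across arrays in that scaling, and the part of this shift in r was not tested. This was the only pair compared, so whether such an r is particular to Hspd1 and Hspe1 was not tested.

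**Figure D3:**
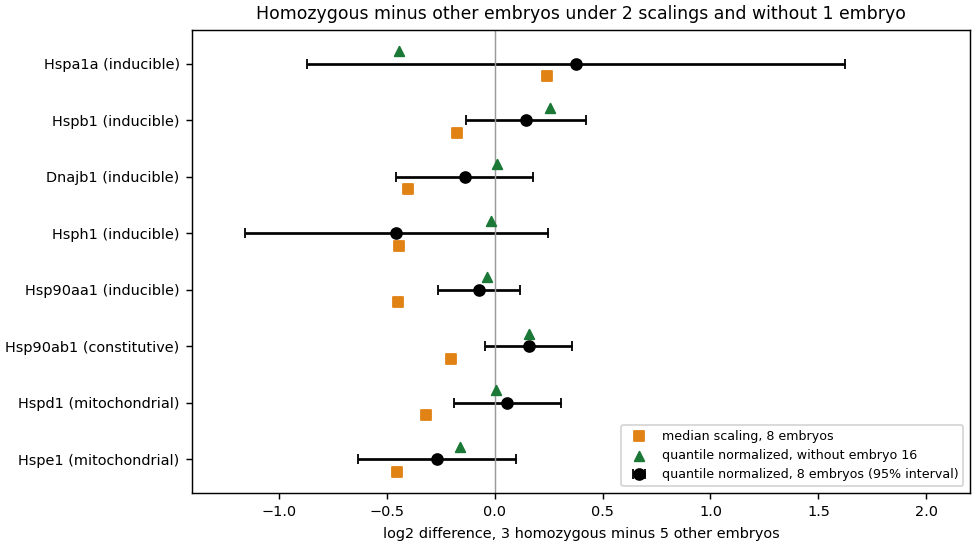
Log2 difference of 3 homozygous minus 5 other embryos for each measured member. Black points and bars are the estimate and its 95% interval after quantile normalization, green triangles leave out embryo 16, and orange squares use median scaling. All 8 intervals include 0, Hspa1a and Dnajb1 change sign without embryo 16, and Hspb1, Hsp90ab1 and Hspd1 turn negative under median scaling.

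Classes were compared by a class level, the mean over a class of each gene's log2 value minus its own mean over 8 embryos. The inducible level (5 genes) averaged 0.02 with an SD of 0.03 over 2 wild type embryos, 0.00 with an SD of 0.22 over 3 heterozygous embryos and -0.02 with an SD of 0.09 over 3 homozygous embryos. Embryo 15 was lowest at -0.25, and embryo 16 lay at 0.01, where its high Hspa1a and low Hsph1 offset each other. In embryo 15 the deviations were -0.84 for Hspa1a and -0.29 for Hsph1. They were -0.12 for Hspb1, 0.04 for Dnajb1 and -0.03 for Hsp90aa1. The inducible level thus leans on the dim and variable Hspa1a and Hsph1. The constitutive level (Hsp90ab1 alone) was -0.12 ± 0.02, -0.02 ± 0.09 and 0.10 ± 0.08 in the same order. The mitochondrial level (2 genes) was -0.02 ± 0.22, 0.08 ± 0.19 and -0.07 ± 0.10.

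Homozygous minus other embryos, the class levels differed by -0.03 (inducible), 0.16 (constitutive) and -0.10 (mitochondrial). Without embryo 16 these values were -0.04, 0.16 and -0.07. Under median scaling all 3 were negative, at -0.24, -0.20 and -0.38, with 1 of 8 members positive there, and in that scaling embryo 16 held the lowest value in 7 of 8 members. The constitutive class stood first and the mitochondrial class last under both scalings, while the sign of the constitutive class did not hold. These differences are smaller than or close to the SD between embryos of a genotype in the inducible and mitochondrial classes, and no test was made of a class.

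**Figure D4:**
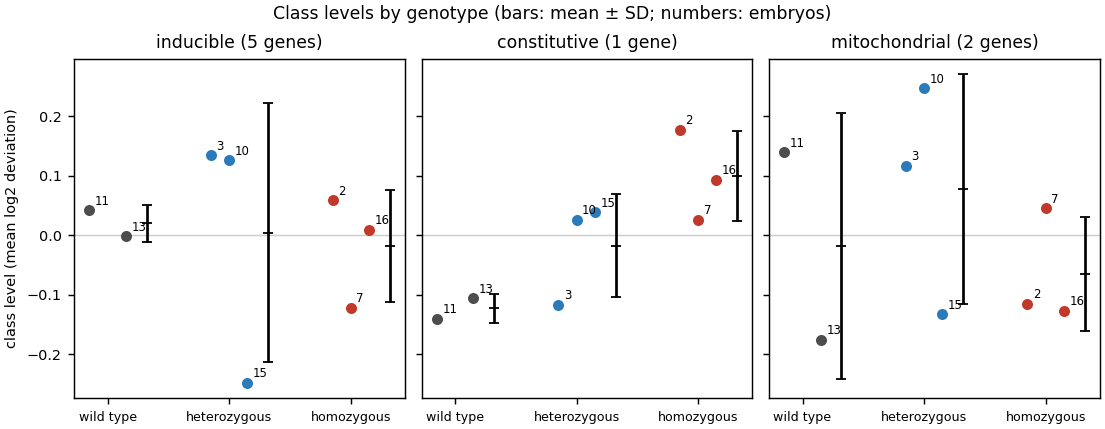
Class level in each embryo (mean log2 deviation from the mean of 8 embryos) for the inducible, constitutive and mitochondrial members, by genotype. Numbers are embryos, and bars are the mean ± SD over 2, 3 and 3 embryos. The constitutive level, which is Hsp90ab1 alone, runs from -0.12 to 0.10 after quantile normalization, but its homozygous minus other difference turns from 0.16 to -0.20 under median scaling.

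One copy of the allele was set against none by comparing heterozygous with wild type embryos. By limma 0 of 8 members passed, as did 0.00% of 23387 probes, and 0 of 8 had an unadjusted p under 0.05, against 2.30%. Differences ran from -0.28 for Hsph1 (SE 0.40) to 0.16 for Hspd1 (SE 0.13). Dnajb1 was the 1 of 8 members without overlap, with all heterozygous values above the wild type ones and a difference of 0.15 (SE 0.18, limma adjusted p = 1.0). Across all probes 19.7% did not overlap in this comparison. Both wild type embryos had high Y-linked levels and heterozygous embryos 3 and 15 low ones, so Y-linked level and genotype are partly mixed here, and in a fit with a Y-linked covariate 0 of 8 members passed. In that fit the Hspa1a difference moved from -0.01 to -0.60 here, and from 0.37 to 0.0035 between homozygous and wild type embryos.

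The wider chaperone network was read from 9 lists of 96 genes, of which 83 were tested. None of the 83 passed by limma in any of the 4 comparisons after quantile normalization. In homozygous against other embryos 12 of 83 (14.5%) had an unadjusted p under 0.05, below the 20.0% of all probes, and 26 had a positive sign. Their median difference was -0.05, beside -0.06 over all probes. Genes named from each list here and below are among those with its smallest p in this comparison. Lack of overlap in them thus follows in part from that choice, and 14.6% of all probes showed it. The factors that control the inducible class were among them. Hsf1, the master activator, averaged 7.04 ± 0.26 (SD, n = 3) over homozygous embryos and 7.00 ± 0.12 (n = 5) over the rest, a difference of 0.04 that was 0.15 without embryo 16 and turned to -0.05 under median scaling. Hsf2 had a difference of -0.18 (SE 0.10) and Hsbp1, which binds Hsf1 trimers and dampens them, one of -0.31 (SE 0.14), with limma adjusted p = 0.345 and 0.258.

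Partners of Hsp70 gave no call. Of 10 tested J-domain proteins 0 passed, 2 had a positive sign and the median was -0.15. Dnaja1, which works with Hsp70 on newly made and imported proteins, averaged 12.19 ± 0.18 (SD, n = 3) over homozygous embryos and 12.52 ± 0.08 (n = 5) over the rest, without overlap (difference -0.33, limma adjusted p = 0.177). Dnaja2 had a difference of -0.36 (-0.17 without embryo 16). Dnajc5, the J-domain protein of secretory vesicles, had one of 0.46 (SE 0.14, limma adjusted p = 0.176), with the spot of embryo 2 missing, and 0.095 under median scaling. Among 9 exchange factors and cofactors 0 passed, with 3 positive and a median of -0.02. Bag2, which inhibits the ubiquitin ligase Chip, was at 11.40 ± 0.11 in homozygous and 10.92 ± 0.13 in other embryos (SD, n = 3 and 5), without overlap. Its difference of 0.48 (SE 0.11, limma adjusted p = 0.121) was 0.42 without embryo 16 and 0.16 under median scaling, and it passed in 1 of 21 alternatives, with a trended robust prior. Bag3, a partner of small heat shock proteins and a classical target of Hsf1, was at -0.13 and turned to 0.02 without embryo 16.

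Other Hsp70 and Hsp110 genes gave 0 of 5 passed, with 1 positive and a median of -0.03. The one with the smallest p, Hspa13, a microsomal Hsp70, had a difference of -0.14 (SE 0.08). Of 6 other small heat shock proteins 0 passed and 3 were positive, with a median of -0.05. Hspb8, the partner of Bag3, had a difference of -0.25 (SE 0.12, limma adjusted p = 0.295).

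Of 14 Hsp90 co-chaperones 0 passed, 2 had a positive sign and the median was -0.11. Chordc1, an Hsp90-binding protein, averaged 11.47 ± 0.06 (SD, n = 3) over homozygous embryos and 11.73 ± 0.06 (n = 5) over the rest, without overlap (difference -0.26, SE 0.08, limma adjusted p = 0.170, and -0.29 without embryo 16). Of 12 subunits of the cytosolic chaperonin TRiC and of prefoldin, which feeds it actin and tubulin, 0 passed and 3 were positive, with a median of -0.07. The prefoldin subunits Pfdn1 (-0.45, SE 0.16) and Pfdn6 (-0.21, SE 0.09) both lay lower in the 3 homozygous embryos without overlap, at limma adjusted p = 0.194 and 0.242. Without embryo 16 they were at -0.26 and -0.20.

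Mitochondrial chaperones and proteases other than the member pair gave no call either. All 8 tested genes had a positive difference, with a median of 0.16 (0.12 without embryo 16), and no test set this list against the others. The list level was 0.138 to 0.337 in homozygous embryos and -0.342 to 0.132 in the rest. Clpx belongs to this list and was at 6.04, 6.20 and 6.14 in embryos 10, 11 and 13, where the list level was lowest. Its part in the list level was not tested. Trap1, the Hsp90 of mitochondria, averaged 9.76 ± 0.13 (SD, n = 3) over homozygous embryos and 9.29 ± 0.13 (n = 5) over the rest, without overlap. Its difference was 0.47 (SE 0.11, limma adjusted p = 0.124), 0.41 without embryo 16 and 0.21 under median scaling. Lonp1, the matrix protease, had 0.25 (SE 0.10, limma adjusted p = 0.238) and turned to -0.02 under median scaling and -0.06 with the deposited values.

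Of 16 chaperones of the endoplasmic reticulum, the other folding compartment, 0 passed and 3 were positive, with a median of -0.06. Hyou1, its Hsp110, had a difference of -0.44 (-0.27 without embryo 16), Creld2 one of -0.34 (-0.19) and the lectin chaperone Calr one of -0.39 (-0.35).

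Lists of immediate-early and hypoxia genes were read beside the members. Handling and oxygen supply of the embryos were not measured. Of 9 immediate-early genes, which respond within minutes of dissection or stress, 0 passed and 3 were positive, and the list level of embryo 16 (0.05) lay within the range of the 5 other embryos (-0.05 to 0.09). Single genes differed, with Btg2 at -0.49, Egr2 at -0.57 and Ier3 at 0.89 (0.27 without embryo 16). The 9 hypoxia genes tested were all positive, with a median of 0.85 (0.62 without embryo 16) and 0 past the threshold. The vascular growth factor Vegfa had the smallest p among them, with a difference of 1.57 (SE 0.22, limma adjusted p = 0.0574). It passed in 9 of 21 alternatives, Egln1 in 7, Hk2 in 6 and Bnip3 in 6, so the count of 0 hangs on the setting. The hypoxia level was 0.98 in embryo 16, the embryo with the highest Hspa1a, 0.38 in embryos 2 and 7, and -0.43 to -0.20 in the 5 others. Its part in the Hspa1a value was not tested.

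**Figure D5:**
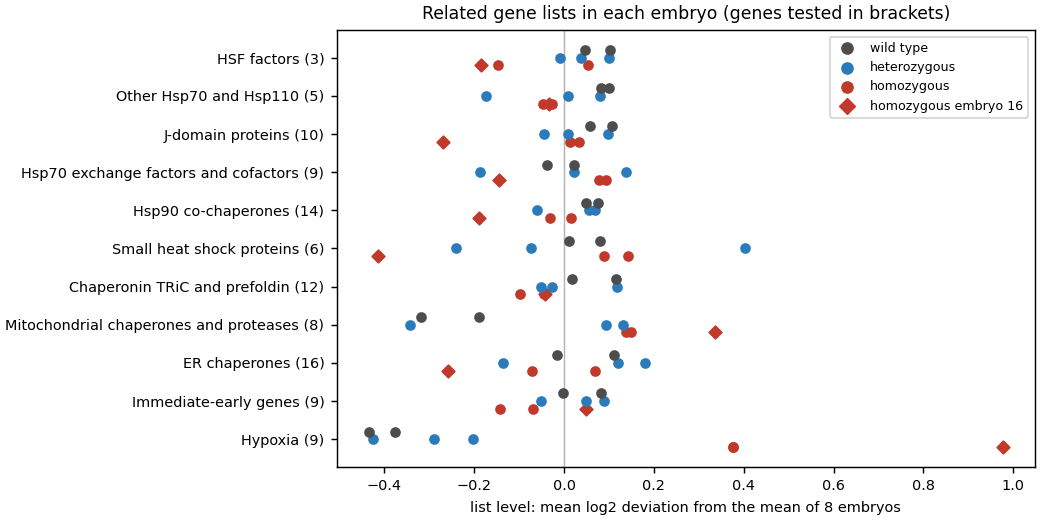
List level in each embryo (mean log2 deviation from the mean of 8 embryos) for 11 lists, with the number of genes tested in brackets. Points are embryos coloured by genotype, and diamonds mark homozygous embryo 16. The hypoxia list separates the 3 homozygous embryos from the 5 others. The mitochondrial list does so by a narrow margin (0.138 to 0.337 against -0.342 to 0.132). The chaperone lists of cytosol and endoplasmic reticulum overlap between genotypes.

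Genes most like the inducible class level were sought over the 8 embryos among 10158 named probes. The best 5 by Pearson's r were Ube2f (0.97), a conjugating enzyme for Nedd8, Dpagt1 (0.91), the first enzyme of N-glycosylation, the cell death protein Bid (0.90), the importin Ipo4 (0.89) and the RNA helicase Ddx47 (0.88). They are the extremes of many comparisons over few embryos and are given as a description.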

How the data were processed

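RNA of 8 single embryos was hybridised to one-colour CodeLink arrays, per the labels' protocols. Each deposited array file holds an intensity per spot, which per the file headers and the values equals the mean signal of the spot less the median of its local background. The deposited value table holds the same values divided by 1 factor per array, matched to all 35587 spots within 5e-08, so its scale is linear. For the scanner software and any genome build, the entry is: not given in the sources used here.

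Control spots were left out and spots marked by the scanner software were set missing. Intensities were quantile normalized, floored at the 5th percentile (4.50) and taken to log2. A probe was tested if at least 1 genotype had it above background on every array, 23389 in all, with limma 3.58.1 in R 4.3.3 (lmFit, eBayes, two-sided, Benjamini-Hochberg over all tested probes, threshold 0.05). A 2-group model compared homozygous with other embryos, and a model of 3 genotype means gave the pairwise comparisons. Intervals are 95% and come from the same models. The number of arrays limits the precision. The fit of homozygous against other embryos was also run on simulated log2 values with known differences. Normalization, floor, filter and the pairwise model were not part of that check. Correlations used SciPy 1.17.1, with exact two-sided permutation tests.

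Probes were named through RefSeq accessions (14763 with a symbol, 20204 without). A gene's brightest probe stood for it in lists. All 10 members were named in every comparison, with up to 4 genes of smallest p per related list and the 5 genes most like the inducible level. Which of those list genes are printed, and the comparison of Hspd1 with Hspe1, were chosen after values were seen. Members and lists were chosen with earlier results of these data known. Alternatives covered scaling, floor, background correction, filter, weights, variance prior, a Y-linked covariate, fitted samples and embryos left out. Headers gave no slide or scan shared by arrays, so no such block was fitted.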

Additional observations from a re-analysis of the deposited data

How the results depend on the processing

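Over 22 alternatives to the fit, 0 of 696 member fits passed the threshold, and the lowest adjusted p was 0.152 (Hsph1 with a Y-linked covariate). Precision is limited by 2 or 3 embryos a genotype, and Hspa1a was dim in 7 of 8 embryos. Hsph1 intensity was also low, at 62.6 to 122. Differences close to 0 changed sign easily, and the cause of the shifts given here was not tested. No paired analysis was run, because the sample titles give stage, genotype and embryo number but no litter. Whether litter ran with genotype was not tested. Leaving out 1 wild type embryo leaves a single one, assumed to vary like the other groups. A slide or scan block was not run.

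Homozygous minus other differences that turned sign were, under median scaling, Hspb1 (-0.17), Hsp90ab1 (-0.20), Hspd1 (-0.32), Hsf1 (-0.053) and Lonp1 (-0.024), and in the deposited value table -0.21, -0.24, -0.35, -0.086 and -0.058 in that order. Hspa1a turned with array weights (-0.31) and without embryos 10 and 16 (-0.39), Bag3 under cyclic loess (0.010), array weights (0.017) and without embryos 10 and 16 (0.075), and Dnajb1 (0.014) and Hsph1 (0.022) without those embryos. With 1 embryo left out, the range was -0.44 to 0.88 for Hspa1a, -0.29 to 0.010 for Dnajb1, -0.23 to 0.019 for Bag3 and -0.10 to 0.15 for Hsf1.

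Homozygous minus wild type differences turned for Hspb1, Hsp90ab1 and Hspd1 to -0.17, -0.11 and -0.21 under median scaling and -0.21, -0.14 and -0.24 in the deposited table. Hspa1a turned to -0.31 with array weights and -0.45 without embryos 10 and 16, and Dnajb1 to 0.032, 0.030 and 0.10 with array weights, the Y-linked covariate and without those embryos. With 1 embryo left out Hspa1a ran from -0.45 to 0.88 and Dnajb1 from -0.19 to 0.10.

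Heterozygous minus wild type differences turned for Hspa1a under cyclic loess (0.033), median scaling (0.014), normexp (0.017), the deposited table (0.012) and array weights (0.065), for Hspe1 under median scaling (-0.033), the deposited table (-0.035) and without embryos 10 and 16 (-0.075), for Hspb1 under cyclic loess (0.0063) and the Y-linked covariate (0.16), and for Hsph1 with that covariate (0.23). With 1 embryo left out the ranges were -0.26 to 0.34 for Hspa1a, -0.11 to 0.064 for Hspb1 and -0.19 to 0.25 for Hspe1.

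Homozygous minus heterozygous differences turned for Hspb1 and Hsp90ab1 under median scaling (-0.17 and -0.27) and in the deposited table (-0.20 and -0.30), for Hspa1a with array weights (-0.38) and without embryos 10 and 16 (-0.33), and for Hsph1 (0.23) and Hspd1 (0.011) without those embryos. With 1 embryo left out the ranges were -0.44 to 0.89 for Hspa1a, -0.57 to 0.10 for Hsph1 and -0.077 to 0.060 for Hspd1.

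Counts of all probes past the threshold moved more. For homozygous against other embryos the count of 25 became 42 under cyclic loess, 45 in the deposited table, 85 under normexp, 6 without a filter, 50 with probes above background on all arrays, 143 with array weights, 118 with a trended robust prior, 58 with the Y-linked covariate, 70 without embryos 10 and 16, and 5 to 314 with 1 embryo left out. For homozygous against wild type the 8 became 27, 20 and 27 under median scaling, under cyclic loess and in the deposited table, 5 with the floor at the 1st percentile, 5 when marked spots were kept, 36 under normexp, 4 without a filter, 237 with array weights, 48 with the robust prior, 0 in a fit of these groups alone, 33 without embryos 10 and 16, and 0 to 42 with 1 embryo left out. For heterozygous against wild type the 0 became 2, 1 and 2 under the same 3 scalings, 1 with array weights and with the robust prior, 9 without embryos 10 and 16, and 0 to 3 with 1 left out. For homozygous against heterozygous the 5 became 10, 9 and 12 under the 3 scalings, 11 under normexp, 15 with array weights, 16 with the robust prior, 33 without embryos 10 and 16, and 4 to 58 with 1 left out.

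Homozygous minus other class levels moved to -0.24 (inducible), -0.20 (constitutive) and -0.38 (mitochondrial) under median scaling and to -0.28, -0.24 and -0.42 in the deposited table. Genes with an exact match to a heat shock element numbered 6 with a single pair of units in place of 3.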

Other observations

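Clpx, which unfolds proteins for the matrix protease Clpp, had the widest spread among the chaperone genes named by the rule, and it is singled out after its values were seen. Its log2 levels were 8.26, 8.37 and 9.27 in homozygous embryos 2, 7 and 16, 8.47 and 9.44 in heterozygous embryos 3 and 15, and 6.04, 6.20 and 6.14 in heterozygous embryo 10 and wild type embryos 11 and 13. The values fell into a low set of 3 embryos and a high set of 5, with heterozygous embryos in both. The difference of homozygous from other embryos was 1.37 (SE 0.82, limma adjusted p = 0.366).

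Within the Hsp70 system the 3 inducible members pointed different ways in embryo 16. Its deviation from the mean of 8 embryos was 1.84 for Hspa1a, -1.16 for Hsph1 and -0.39 for Dnajb1. These are values after quantile normalization. Before it, the Hsph1 intensity of embryo 16 (63.3) was close to that of embryo 15 (62.6).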
